A study of Mus musculus with 12 samples.

Results

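The proteasome subunit genes are the mouse genes whose symbol is Psma, Psmb, Psmc, Psmd, Psme or Psmf followed by a number and that have a probe set annotated to that symbol alone. This gave 43 of the 18193 genes measured on the array, each read from its brightest probe set. They comprised 8 alpha genes of the core (Psma1 to Psma8), 7 constitutive beta genes (Psmb1 to Psmb7) and 4 immunoproteasome and thymus beta genes (Psmb8, Psmb9, Psmb10 and Psmb11). The others were 6 ATPases of the regulatory base (Psmc1 to Psmc6), 14 non-ATPase genes (Psmd1 to Psmd14) and 4 genes of the activators and the inhibitor (Psme1, Psme3, Psme4 and Psmf1). Classes follow the symbol, so the non-ATPase class can hold genes whose product is not a subunit of the mature particle. All 43 matched a RefSeq gene. Psme2, partner of Psme1 in the PA28 activator, shares its probe set with Psme2b, so no value is given for it. Of the 43 genes, 41 averaged a signal of 100 or more, and the other two, Psma8 and Psmb11, stayed under it in every array.

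The proteasome is the main protease of the cytosol and nucleus: it unfolds and cuts proteins marked with ubiquitin. Its barrel-shaped core has outer rings of alpha subunits, which gate the entrance, and inner rings of beta subunits, of which Psmb5, Psmb6 and Psmb7 carry the constitutive active sites; the regulatory particle recognises ubiquitin, removes it and feeds the substrate in with its ATPases. Interferon gamma is known to replace the active subunits with Psmb8, Psmb9 and Psmb10, giving the immunoproteasome, which favours peptides for MHC class I, while the transcription factors Nfe2l1 and Nfe2l2 are known to raise the constitutive subunits together.

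The series measured primary hepatocytes with 12 Affymetrix arrays in 4 groups of 3, with 1 array per mouse according to the design text. The groups were human AHR hepatocytes with TCDD, human AHR hepatocytes with vehicle, wild-type hepatocytes with TCDD and wild-type hepatocytes with vehicle. The human AHR mice carry the conditional mouse Ahr allele Ahrtm3.1Bra on a B6.Cg background together with the transgene insertion 1Ghp, which holds Alb-cre (Cre under the albumin promoter) and Ttr-AHR (human AHR under the transthyretin promoter); both promoters are active in hepatocytes, and the wild-type mice are C57BL6/J. The design text writes the genotypes as AHRTtr and Ahrb/b. TCDD is a dioxin and a potent ligand of the aryl hydrocarbon receptor, AHR; it was given at 10 nM for 6 h, after 48 h in a culture medium that held 2.5% DMSO and dexamethasone in all groups, and vehicle was DMSO. The design asks what TCDD changes with each form of the receptor and whether the forms differ.

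Signals are linear intensities rescaled so that the 2% trimmed mean of every array is 150. Only the 3 wild-type TCDD arrays were deposited with another trimmed mean, so a difference in processing cannot be told apart from that group. In the genes used to check the labels, Ahr (mouse probe set) had 225, 193 and 216 in human AHR TCDD, 224, 193 and 236 in human AHR vehicle, 243, 442 and 223 in wild-type TCDD and 261, 617 and 245 in wild-type vehicle arrays. The labels do not say which part of the allele Cre removes, so this probe set checks nothing about it. Tiparp, a target of AHR, had 3538, 3609 and 3479 in human AHR TCDD arrays against 1327, 1403 and 1342 in human AHR vehicle arrays, and 2575, 3324 and 2534 in wild-type TCDD arrays against 1402, 911 and 1098 in wild-type vehicle arrays. Cyp1a1, the classical AHR target, had 6624, 4004 and 6939 in human AHR TCDD arrays against 81.9, 63 and 60.5 in human AHR vehicle arrays; in wild-type arrays it had 125, 2518 and 64.9 with TCDD and 25.3, 24 and 18.5 with vehicle. Both wild-type replicate 2 arrays stood apart. Xist, on the X chromosome, was 2952 under TCDD and 3085 under vehicle there, and at most 29.3 in the other 10 arrays. Eif2s3y, on the Y chromosome, was 0.42 and 4.7 there, against at least 453 in the other 10. The labels give no sex. By these 2 genes both replicate 2 arrays read as female and the other 10 as male, so each wild-type group held both. The hepatocyte markers Alb, Apoa1 and Ttr were at least 10484, 12931 and 10872 in every array, and arrays of 1 group correlated between 0.958 and 0.985.

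No proteasome gene passed an adjusted p of 0.05 in any of the 5 comparisons (limma, Benjamini-Hochberg over all 18193 genes), and none had an unadjusted p under 0.05. Under the same rule 0.022% of all genes passed for TCDD in human AHR cells, 0.0055% for TCDD in wild-type cells, 0% for the difference of the 2 TCDD effects, 0.0055% for human AHR against wild type under vehicle and 0% for the same comparison under TCDD. With shares this low, a count of 0 among 43 genes does not set the family apart. At an unadjusted p under 0.05 the shares of all genes were 2.9%, 4.18%, 3.14%, 4.23% and 4.11% in that order of comparisons. The lowest adjusted p of any member was 0.965.

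These arrays give an interval, gene by gene, for the size of change of the 34 constitutive genes with a signal of 100 or more (core, base and non-ATPase genes). The half-width of the 95% confidence interval of a log2 difference had a median of 0.34 over them and ran between 0.23 and 0.54. No interval for TCDD against vehicle reached beyond -0.47 or 0.61 in human AHR cells, or beyond -0.69 or 0.71 in wild-type cells. Each interval is for 1 gene, not for the 34 together, and rests on a spread shared by the 4 groups. The median SD within a group was 0.10 and 0.09 for human AHR TCDD and vehicle. For wild-type TCDD and vehicle it was 0.27 and 0.18. The shared spread thus makes the wild-type intervals too narrow and the human AHR intervals too wide for most of these genes. For Psmb8, Psmb9 and Psmb10 the half-widths were 0.60 to 0.96, so a log2 difference smaller than its half-width has an interval that includes 0. The adjusted threshold over all genes is stricter than these intervals. With 3 arrays a group, larger changes in single immunoproteasome genes could therefore also go uncalled.

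**Figure D1:**
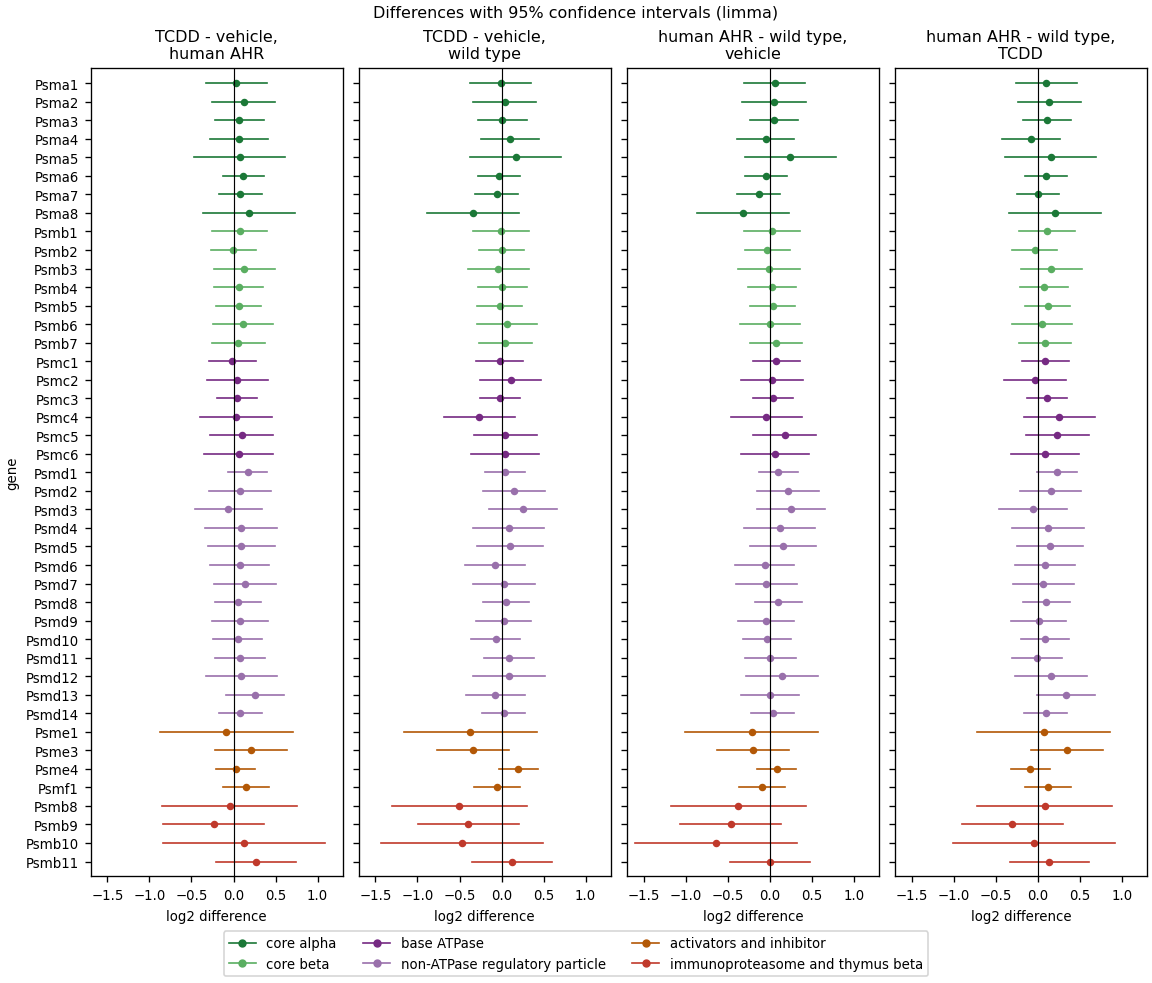
Log2 differences (points) with 95% confidence intervals (lines) of the 43 proteasome genes in 4 comparisons, from limma on log2(signal + 16), 3 arrays a group, coloured by class. Every interval includes 0, and those of Psmb8, Psmb9, Psmb10 and Psme1 are the widest among genes above a signal of 100.

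With TCDD, human AHR cells had slightly higher mean signals for most of the family. The log2 difference was positive for 37 of 43 genes with a median of 0.07, beside 46.9% positive and a median of -0.01 over all genes. Among the 7295 genes with a signal of 100 or more, 47.9% were positive and the median was -0.01. By class, 8 of 8 alpha genes, 6 of 7 constitutive beta genes and 5 of 6 ATPases were positive. So were 13 of 14 non-ATPases and 3 of 4 activator and inhibitor genes, and the medians of these classes lay between 0.05 and 0.09. Of Psmb8, Psmb9 and Psmb10, 1 was positive. The alpha count includes Psma8 (0.19) and the 37 include Psmb11 (0.27), whose signals were near background. Of the 34 constitutive genes at 100 or more, 31 were positive, with a median of 0.07. Array by array, the median deviation of the 43 genes from their 12-array means was 0.02, 0.11 and 0.05 in human AHR TCDD arrays (SD 0.04) and -0.09, 0.02 and 0.04 in human AHR vehicle arrays (SD 0.07). The groups overlapped, and the shift was about as large as this spread. In human AHR vehicle replicate 1, 34 of the 43 genes lay below their 12-array means, against 16 and 18 in vehicle replicates 2 and 3. In the human AHR TCDD arrays 16, 10 and 16 genes did. Between arrays of the same replicate number, TCDD minus vehicle was 0.12, 0.09 and 0.01 in human AHR cells. In wild-type cells it was -0.07, -0.01 and 0.11. The human AHR numbers were taken as pairs from the values alone, so these signs are no separate evidence of a shift. In 2 of 43 genes (4.65%), Psma7 and Psmd1, the lowest human AHR TCDD array exceeded the highest human AHR vehicle array, beside 3.34% of all genes. No gene of the 43 lay below in all, beside 3.87% of all genes. Of all genes at 100 or more, 3.17% lay above in all and 2.76% below.

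In wild-type cells the sign was split, with 24 of 43 genes positive under TCDD and a median of 0.01. The median was 0.03 over all genes and -0.01 over all genes at 100 or more. The count depended on single arrays and on the scaling: it was 5 without TCDD replicate 3, 9 without vehicle replicate 2, and 5 when arrays were set to a shared median, which lowers every wild-type TCDD difference by 0.12. The 3 immunoproteasome genes were all lower with TCDD, with a median of -0.47, and 22 of the 34 constitutive genes were higher, with a median of 0.03 that turned to -0.09 with a shared median. Psme4 alone had its lowest TCDD array above its highest vehicle array (2.33% of the family, beside 6.18% of all genes), and none lay below in all (2.82% of all genes). Of all genes at 100 or more, 2.51% lay above in all and 2.69% below.

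The difference between the TCDD effects, human AHR minus wild type, was positive for 34 of 43 genes with a median of 0.06. The median was -0.04 over all genes (44.1% positive) and 0.01 over all genes at 100 or more (51.1% positive). Over the 43 genes, the count was 18 and the median -0.04 without wild-type TCDD replicate 2. With arrays set to a shared median the count was 41, with a median of 0.20. The gene with the smallest p was Psme3, with a difference of 0.55 (95% interval -0.06 to 1.16, limma adjusted p = 0.998).

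Between the genotypes, vehicle cells with human AHR were higher than wild-type vehicle cells for 26 of 43 genes, with a median of 0.03. The median was 0.03 over all genes and 0.01 over all genes at 100 or more. The count over the 43 was 9 without wild-type vehicle replicate 2 and 13 with a shared median. Under TCDD, 35 of 43 genes were higher in human AHR cells than in wild-type cells, with a median of 0.10. Here the median was -0.01 over all genes and 0.02 over all genes at 100 or more. Without wild-type TCDD replicate 2, 23 of 43 genes were higher, with a median of 0.00. In each comparison 1 gene (2.33%) had all human AHR arrays above all wild-type arrays, Psme4 under vehicle (6.27% of all genes) and Psmd1 under TCDD (3.23% of all genes), and none lay below in all (4.41% and 4.86% of all genes). Of all genes at 100 or more, 6.13% lay above and 5.06% below under vehicle, and 2.96% and 2.17% under TCDD. The TCDD comparisons and the genotype comparisons share their arrays, so their counts are not separate evidence.

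None of the alpha genes passed the test. Psma7, whose product sits in the alpha ring, was the alpha gene with no overlap between human AHR groups. Psma7 had 3129, 3089.7 and 3200.2 in human AHR TCDD arrays and 2951, 2895 and 3064 in human AHR vehicle arrays. Wild-type Psma7 signals were 3286, 2903 and 3204 under TCDD and 3717, 2888 and 3216 under vehicle. All 3 human AHR TCDD arrays lay above the human AHR vehicle arrays, by a log2 difference of 0.08 (95% interval -0.17 to 0.33, limma adjusted p = 1), whereas wild-type TCDD arrays lay within the range of the wild-type vehicle arrays. Psma5, an alpha ring subunit named after its values were seen, had the widest range of the constitutive genes, 2.31-fold between its lowest array, wild-type TCDD replicate 2 at 2514, and its highest, wild-type TCDD replicate 3 at 5807. A second Psma5 probe set gave log2 differences of 0.11 for TCDD in human AHR cells and 0.15 in wild-type cells, beside 0.07 and 0.17 from the one used. Psma8, the testis form that replaces Psma7 in germ cells, was at most 16.7 in any array. Psma8 had 16.7, 9.4 and 10.1 in human AHR TCDD arrays and 15.1, 10.7 and 1.7 in human AHR vehicle arrays. Wild-type Psma8 signals were 0.87, 10.4 and 15.5 under TCDD and 12.9, 14.7 and 16 under vehicle. These signals are near the offset added before taking logs, and their differences carry no order.

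The constitutive active sites are the caspase-like Psmb6, the trypsin-like Psmb7 and the chymotrypsin-like Psmb5. Psmb5 had 3029.8, 3333 and 3359 in human AHR TCDD arrays and 3171, 3094 and 3051 in human AHR vehicle arrays. Wild-type Psmb5 signals were 2905, 2835 and 3204 under TCDD and 3058, 2606 and 3471 under vehicle. Its TCDD and vehicle arrays overlapped in both genotypes, with log2 differences of 0.06 in human AHR cells (95% interval -0.21 to 0.33) and -0.02 in wild-type cells (-0.29 to 0.24). Psmb6 had 3881, 4400.3 and 4369.7 in human AHR TCDD arrays and 3680.0, 3849.7 and 4139 in human AHR vehicle arrays. Wild-type Psmb6 signals were 3969, 3257 and 5202 under TCDD and 4114, 3298 and 4317 under vehicle. Here too the groups overlapped, and the widest gap was inside the wild-type TCDD group, between replicates 2 and 3; the log2 differences were 0.12 (-0.24 to 0.47) in human AHR cells and 0.07 (-0.29 to 0.42) in wild-type cells. Psmb7 had 6604, 7426 and 7700.2 in human AHR TCDD arrays and 6923, 6829.7 and 7069.7 in human AHR vehicle arrays. Wild-type Psmb7 signals were 6983, 5774 and 7800.1 under TCDD and 7174, 5617 and 7097 under vehicle. Psmb7 was lowest in replicate 2 of both wild-type groups, and its log2 differences with TCDD were 0.06 (-0.25 to 0.37) in human AHR cells and 0.05 (-0.27 to 0.36) in wild-type cells. The structural subunits Psmb1, Psmb2, Psmb3 and Psmb4 had log2 differences with TCDD between -0.00 and 0.13 in human AHR cells and between -0.04 and 0.01 in wild-type cells.

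Among the ATPases of the base, which unfold the substrate, the 2 with the smallest p were Psmc4 and Psmc5. Psmc4 had 3642, 3441 and 2497 in human AHR TCDD arrays and 2556, 3635 and 3168 in human AHR vehicle arrays. Wild-type Psmc4 signals were 3074, 1978 and 3015 under TCDD and 2956, 3179 and 3411 under vehicle. The low array was wild-type TCDD replicate 2, and the groups overlapped; Psmc4 was lower with TCDD in wild-type cells by a log2 difference of -0.27 (95% interval -0.69 to 0.16, limma adjusted p = 0.966) and a dimmer probe set gave -0.11. Psmc5 had 1695, 2271 and 2481 in human AHR TCDD arrays and 1754, 1868 and 2376 in human AHR vehicle arrays. Wild-type Psmc5 signals were 1721, 1567 and 2176 under TCDD and 1806, 1563 and 1895 under vehicle. Psmc5 had its 2 highest arrays in human AHR replicate 3, under TCDD and vehicle alike. Psmc3, also named after its values were seen, was the steadiest of the constitutive genes, with 1.21-fold between its highest and its lowest array.

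The non-ATPase subunits include the scaffolds Psmd1 and Psmd2, the ubiquitin receptor Psmd4 and the deubiquitinase Psmd14. Psmd1 (chr1:86064619-86139295, GRCm38.p6) gave the smallest p of the family. Psmd1 had 1772, 1764 and 1895 in human AHR TCDD arrays and 1579, 1641 and 1604 in human AHR vehicle arrays. Wild-type Psmd1 signals were 1518, 1576 and 1531 under TCDD and 1632, 1549 and 1328 under vehicle. All human AHR TCDD arrays lay above the other 9. The log2 difference was 0.23 against wild-type TCDD cells (95% interval -0.00 to 0.46, limma adjusted p = 1) and 0.17 against human AHR vehicle cells (-0.06 to 0.40, adjusted p = 1). Next was Psmd13, a subunit of the lid. Psmd13 had 1138, 1362 and 1449 in human AHR TCDD arrays and 875, 1243 and 1196 in human AHR vehicle arrays. Wild-type Psmd13 signals were 869.9, 1208 and 1053 under TCDD and 1061, 1162 and 1049 under vehicle. The human AHR groups overlapped through vehicle replicate 2, at 1243; the log2 difference with TCDD was 0.26 (-0.09 to 0.61, adjusted p = 1) and 0.23 by a second probe set, and against wild-type TCDD cells it was 0.34 (-0.01 to 0.68) and 0.14 by that probe set.

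Psmd2 and Psmd3 had the smallest p among the members for human AHR against wild type under vehicle outside the immunoproteasome. Psmd2 had 2942, 4023 and 3908 in human AHR TCDD arrays and 3027, 3766 and 3436 in human AHR vehicle arrays. Wild-type Psmd2 signals were 3104, 2703 and 4000.5 under TCDD and 3301, 2674 and 2797 under vehicle. The vehicle groups overlapped, with a log2 difference of 0.22 (95% interval -0.15 to 0.59). Psmd3 had 1087, 1294 and 1152 in human AHR TCDD arrays and 1232, 1351 and 1107 in human AHR vehicle arrays. Wild-type Psmd3 signals were 1221, 988 and 1522 under TCDD and 1360.2, 857 and 925 under vehicle. Wild-type vehicle replicate 1 was above both human AHR groups for Psmd3, while replicates 2 and 3 were below them; the log2 difference under vehicle was 0.25 (-0.15 to 0.66, limma adjusted p = 0.965). The remaining 10 non-ATPase genes had log2 differences with TCDD between 0.05 and 0.14 in human AHR cells and between -0.08 and 0.10 in wild-type cells.

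The activators open the core without ubiquitin: Psme1 is part of the interferon-induced PA28 cap, Psme3 forms the nuclear cap, and Psme4 is the large single-chain activator. Psme3 had 379.7, 300.0 and 389 in human AHR TCDD arrays and 417, 246 and 272 in human AHR vehicle arrays. Wild-type Psme3 signals were 323, 289 and 221 under TCDD and 387, 319 and 352 under vehicle. Replicate 1 of human AHR vehicle was high and the groups overlapped in both genotypes. The log2 difference with TCDD was 0.21 in human AHR cells (95% interval -0.22 to 0.64) and -0.34 in wild-type cells (-0.77 to 0.09), and a second probe set gave 0.05 and -0.20. Psme4 had 2226, 2094 and 2125 in human AHR TCDD arrays and 2091, 2143 and 2089.8 in human AHR vehicle arrays. Wild-type Psme4 signals were 2172, 2121 and 2585 under TCDD and 1995, 2047 and 1924 under vehicle. The 3 wild-type TCDD arrays lay above the 3 wild-type vehicle arrays, with TCDD replicate 3 highest of all 12, and the log2 difference was 0.20 (-0.04 to 0.43, limma adjusted p = 0.966); other bright probe sets gave 0.06 and 0.12. Psmf1, the PI31 protein that inhibits the core in vitro, showed no such separation. Psmf1 had 824, 796 and 704 in human AHR TCDD arrays and 605, 717 and 773 in human AHR vehicle arrays. Wild-type Psmf1 signals were 683, 742 and 706 under TCDD and 795, 771 and 660.3 under vehicle. Its log2 difference with TCDD was 0.15 (-0.12 to 0.42) in human AHR cells and -0.06 (-0.33 to 0.22) in wild-type cells.

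**Figure D2:**
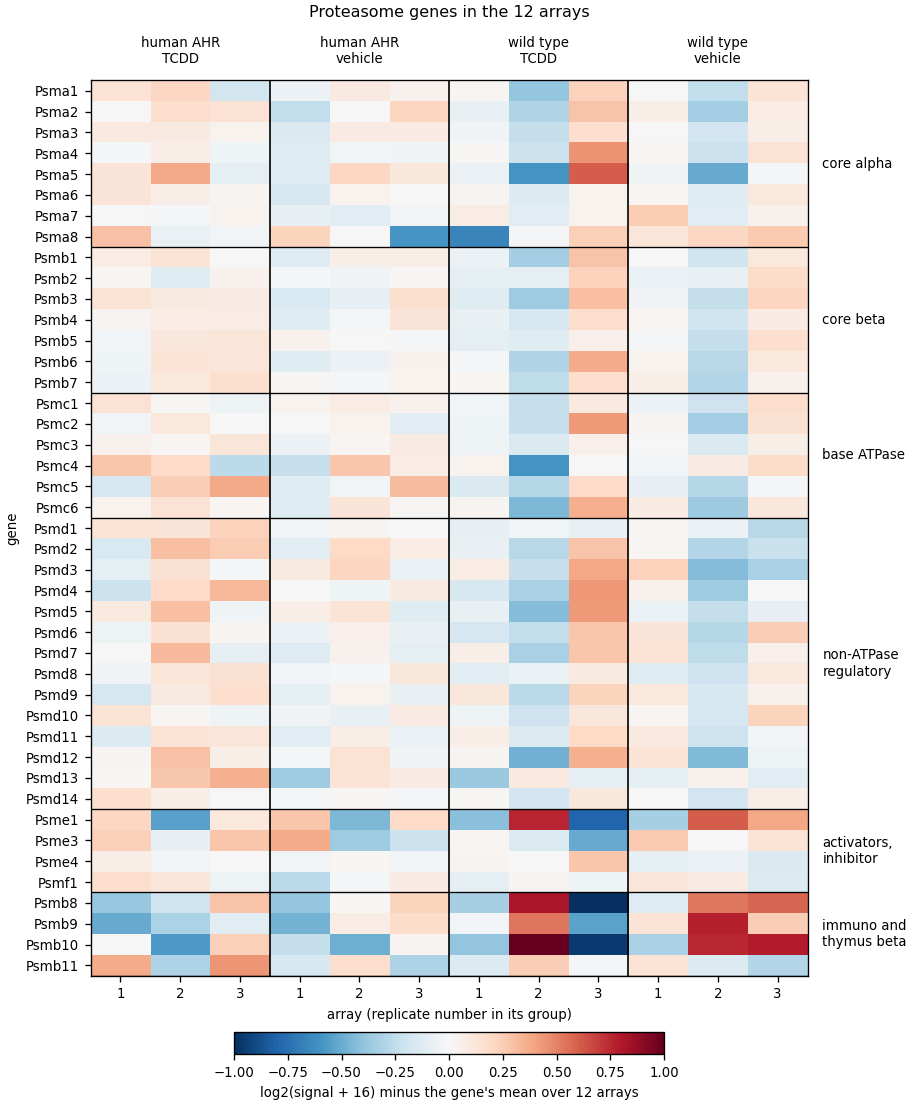
Log2(signal + 16) of each proteasome gene in the 12 arrays minus its mean over the arrays, grouped by class; colours saturate at -1 and 1. In wild-type arrays most constitutive rows are blue in replicate 2 and red in TCDD replicate 3, while Psme1, Psmb8, Psmb9 and Psmb10 show the opposite colours there.

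The immunoproteasome genes and Psme1 behaved differently from the constitutive ones between arrays of the same group. Psmb8 (chr17:34198195-34201454) and Psmb9 (chr17:34182030-34187330) lie in the MHC region beside the peptide transporter genes Tap1 (chr17:34187556-34197225) and Tap2 (chr17:34204479-34216321), Psmb10 lies at chr8:105935728-105938392 and Psme1 at chr14:55578494-55581527 (all GRCm38.p6). The sequences before their starts are given because these 4 genes had high signals in wild-type TCDD replicate 2 and low ones in replicate 3, with that of the constitutive Psmb5 for comparison. Each is the 250 bases upstream of the gene start, 5′ to 3′ on the gene's own strand, from RefSeq GRCm38.p6. Capitals mark the core letters bound by AHR with its partner ARNT (GCGTG, read on either strand) and, in Psmb5, the antioxidant response core (TGACNNNGC) bound by the Nfe2l1 and Nfe2l2 family.
Psmb8, chr17:34197945-34198194, plus strand: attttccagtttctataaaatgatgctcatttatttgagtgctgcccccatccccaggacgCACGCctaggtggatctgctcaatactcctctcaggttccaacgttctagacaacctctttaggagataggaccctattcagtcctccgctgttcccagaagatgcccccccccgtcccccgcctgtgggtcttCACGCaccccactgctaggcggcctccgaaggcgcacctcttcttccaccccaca
Psmb9, chr17:34187331-34187580, minus strand: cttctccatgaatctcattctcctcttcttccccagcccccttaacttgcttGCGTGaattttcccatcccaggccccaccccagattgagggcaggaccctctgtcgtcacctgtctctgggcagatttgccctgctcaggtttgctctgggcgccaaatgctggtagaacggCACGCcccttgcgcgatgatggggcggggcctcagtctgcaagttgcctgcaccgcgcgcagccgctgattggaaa
Psmb10, chr8:105938393-105938642, minus strand: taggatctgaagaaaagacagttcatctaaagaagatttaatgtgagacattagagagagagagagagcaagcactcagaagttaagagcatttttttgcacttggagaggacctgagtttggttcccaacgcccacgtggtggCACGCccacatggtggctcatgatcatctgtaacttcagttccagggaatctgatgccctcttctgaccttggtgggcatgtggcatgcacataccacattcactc
Psme1, chr14:55578244-55578493, plus strand: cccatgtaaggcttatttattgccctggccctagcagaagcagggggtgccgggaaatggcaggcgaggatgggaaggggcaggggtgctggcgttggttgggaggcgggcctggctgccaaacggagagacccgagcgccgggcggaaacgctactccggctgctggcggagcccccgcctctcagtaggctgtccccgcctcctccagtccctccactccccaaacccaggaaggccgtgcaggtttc
Psmb5, chr14:54617996-54618245, minus strand: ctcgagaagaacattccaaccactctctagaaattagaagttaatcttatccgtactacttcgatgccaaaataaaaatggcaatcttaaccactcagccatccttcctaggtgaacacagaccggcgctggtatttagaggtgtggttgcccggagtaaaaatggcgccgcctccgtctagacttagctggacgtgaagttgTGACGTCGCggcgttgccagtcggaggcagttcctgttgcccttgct

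The AHR core letters lay at -189 and -55 before Psmb8, at -198 and -76 before Psmb9 and at -106 before Psmb10, counted from the gene start, and were not found before Psme1 or Psmb5. Among the 36 proteasome genes with a listed promoter 17 held the core (47.2%), beside 30.9% of 27025 genes with a window of the same length; the median GC content was 56.6% for the family and 52.4% for all. The antioxidant core was found before 5 of 36 (13.9%, beside 11.5% of all genes), all 5 of them constitutive, at -47 in Psmb5. The interferon-stimulated response element, taken as GAAA repeated after any 2 bases, was found before 3 of 36 genes (8.33%, beside 3.46%), none of them Psmb8, Psmb9 or Psmb10; TTCNNNGAA, bound by STAT dimers, only before Psmb8 at -97 (beside 8.13% of all genes); and CCAAT before 14 of 36 (38.9%, beside 37.5%). Both strands were searched for each; the Psmb9 window overlaps Tap1 by 25 bases, and a match of letters is a description, not a binding site.

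Psmb8 encodes the inducible form of the chymotrypsin-like site. Psmb8 had 167, 192 and 275 in human AHR TCDD arrays and 167, 224 and 263 in human AHR vehicle arrays. Wild-type Psmb8 signals were 173, 404 and 102 under TCDD and 202, 327 and 341 under vehicle. Wild-type TCDD replicate 2 was the highest and wild-type TCDD replicate 3 the lowest of all 12 arrays, a 3.97-fold range inside 1 group. Psmb9 replaces Psmb6. Psmb9 had 75.3, 88 and 104 in human AHR TCDD arrays and 77.1, 119.8 and 131 in human AHR vehicle arrays. Wild-type Psmb9 signals were 111, 171 and 73.4 under TCDD and 126, 206 and 138 under vehicle. Its highest array was wild-type vehicle replicate 2 and its lowest wild-type TCDD replicate 3. Psmb10 replaces Psmb7. Psmb10 had 269, 174 and 319 in human AHR TCDD arrays and 223, 186 and 272 in human AHR vehicle arrays. Wild-type Psmb10 signals were 199.9, 614 and 130.0 under TCDD and 209.9, 463 and 476 under vehicle. Its range of 4.72-fold again ran from wild-type TCDD replicate 3 to wild-type TCDD replicate 2. Psme1 had 621, 362 and 576 in human AHR TCDD arrays and 651, 388 and 615 in human AHR vehicle arrays. Wild-type Psme1 signals were 396, 919.8 and 302 under TCDD and 422, 821 and 706 under vehicle. Psme1 followed the same order at its ends, 302 and 919.8 in wild-type TCDD replicates 3 and 2. The thymus form Psmb11 was near background. Psmb11 had 13.5, 2.4 and 15 in human AHR TCDD arrays and 4.4, 9.7 and 2.4 in human AHR vehicle arrays. Wild-type Psmb11 signals were 4.7, 11 and 6.5 under TCDD and 9, 4.7 and 2.6 under vehicle.

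The wild-type TCDD and vehicle groups therefore overlapped for all 4 genes, and none of their differences passed the test. With TCDD, wild-type cells had log2 differences of -0.50 for Psmb8 (95% interval -1.31 to 0.30), -0.40 for Psmb9 (-0.997 to 0.20), -0.47 for Psmb10 (-1.44 to 0.49) and -0.37 for Psme1 (-1.16 to 0.42), each with a limma adjusted p of 0.966. In human AHR cells they were -0.05 (-0.85 to 0.76), -0.24 (-0.84 to 0.36), 0.13 (-0.84 to 1.09) and -0.08 (-0.87 to 0.70). The median of Psmb8, Psmb9 and Psmb10 in wild-type cells was -0.47 with all arrays, -0.08 without TCDD replicate 3, -1.003 without TCDD replicate 2 and -0.30 without vehicle replicate 2. The difference between the genotypes in the TCDD effect had a median of 0.46 over the 3 genes, 0.04 without wild-type TCDD replicate 3 and 0.96 without wild-type TCDD replicate 2.

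Under vehicle the 3 genes were lower in human AHR cells than in wild-type cells, by log2 differences of -0.37 for Psmb8 (95% interval -1.18 to 0.43), -0.46 for Psmb9 (-1.06 to 0.14) and -0.64 for Psmb10 (-1.61 to 0.32), each with a limma adjusted p of 0.965. Their median was -0.46, and -0.27 without wild-type vehicle replicate 2. Under TCDD the median was -0.04, and turned to 0.57 without wild-type TCDD replicate 2 and to -0.49 without wild-type TCDD replicate 3; with a shared median it was 0.03.

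**Figure D3:**
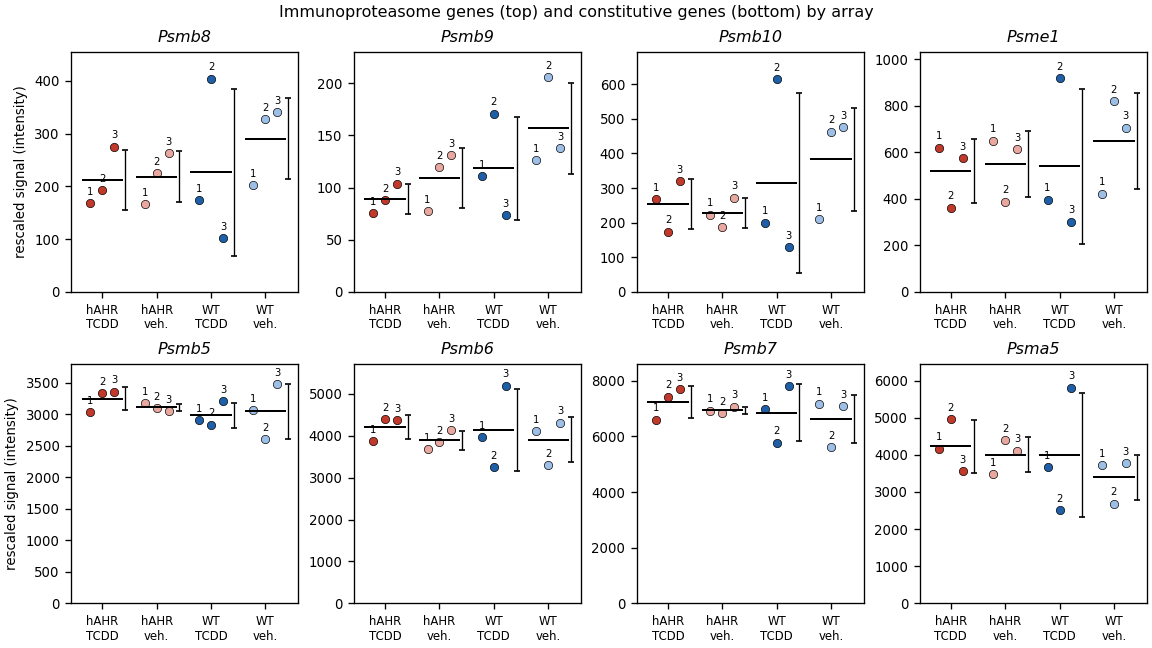
Rescaled signal (linear, axis from 0) of Psmb8, Psmb9, Psmb10 and Psme1 (top) and of Psmb5, Psmb6, Psmb7 and Psma5 (bottom) in each array, numbered by replicate; horizontal lines are group means and the bars beside them 1 SD on either side (n = 3). Among the wild-type TCDD arrays, replicate 2 was highest and replicate 3 lowest for the top genes (Psmb10 at 614 and 130.0). For Psmb6 and Psma5 they lay the other way round.

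Within groups, the SD of log2 values pooled over the 4 groups was 0.68 for Psmb10, 0.55 for Psmb8, 0.55 for Psme1 and 0.38 for Psmb9. Over the 34 constitutive genes it had a median of 0.20 (range 0.08 to 0.36), beside 0.22 over all 7295 genes with a signal of 100 or more. The spread was widest in the wild-type TCDD group, with medians of 0.93 for the 3 immunoproteasome genes and 0.27 for the constitutive ones, beside 0.26 for all those genes.

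Most constitutive genes shared their order among wild-type arrays. Of the 34, 30 (88.2%) were lowest in replicate 2 of the wild-type TCDD group, beside 39.5% of all genes at 100 or more, and 30 were highest in replicate 3, beside 35.2%. In the wild-type vehicle group 31 (91.2%) were lowest in replicate 2, beside 38.6%, and 22 (64.7%) highest in replicate 3, beside 26.6%. In human AHR vehicle arrays 22 (64.7%) were lowest in replicate 1, beside 30.6%. Over all 12 arrays, 30 of the 34 had their lowest signal in one of the wild-type replicate 2 arrays and 20 their highest in wild-type TCDD replicate 3. The sizes were small: 33 of 34 ranged under 2-fold between their highest and lowest array, with a median of 1.52-fold.

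Array by array, the median deviation of the constitutive genes from their 12-array means was -0.24 in wild-type TCDD replicate 2, -0.23 in wild-type vehicle replicate 2 and 0.22 in wild-type TCDD replicate 3. For Psmb8, Psmb9 and Psmb10 it was 0.82, 0.76 and -0.96 in the same arrays. The 2 classes thus lay on opposite sides in all 3. Of the other 9 arrays, 3 also had opposite signs, with smaller deviations of the constitutive genes: human AHR TCDD replicate 1 (0.02 and -0.38), human AHR TCDD replicate 2 (0.13 and -0.31) and wild-type vehicle replicate 1 (0.02 and -0.13). The remaining 6 had the same sign for both classes, among them wild-type vehicle replicate 3 with 0.07 for the constitutive genes and 0.58 for the immunoproteasome genes. The 6 human AHR arrays stayed between -0.09 and 0.13 for the constitutive genes and between -0.39 and 0.24 for the immunoproteasome genes. Medians over all genes at 100 or more lay between -0.04 and 0.03 in every array.

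**Figure D4:**
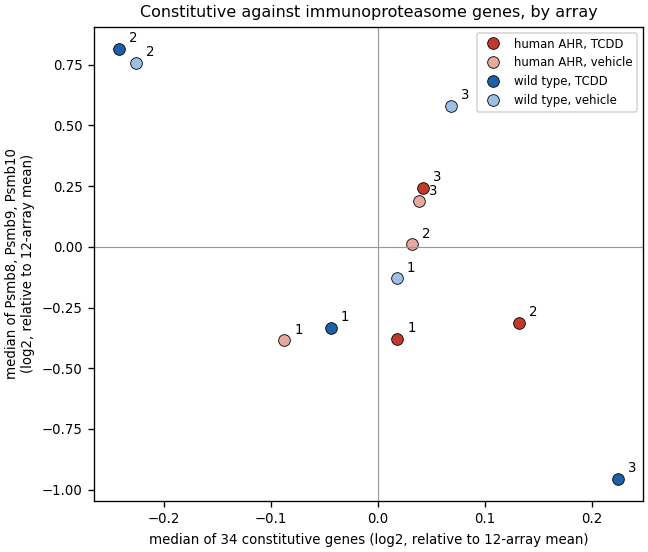
Each point is 1 array, numbered by replicate: median deviation from the 12-array mean (log2) of the 34 constitutive genes on the horizontal axis and of Psmb8, Psmb9 and Psmb10 on the vertical axis. Both wild-type replicate 2 arrays lie at upper left (-0.24 and 0.82 under TCDD, -0.23 and 0.76 under vehicle) and wild-type TCDD replicate 3 at lower right (0.22 and -0.96).

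Several measurements stood beside this pattern. The 2 wild-type arrays with low constitutive and high immunoproteasome signals are the 2 with high Xist and low Eif2s3y; wild-type vehicle replicate 3, with high immunoproteasome signals, and wild-type TCDD replicate 3, at the opposite end, had Xist at 16.4 and 11.7. The leukocyte markers (8 of 9 listed) summed to 44.9 to 84.4 in wild-type TCDD arrays and 24.3 to 51.4 in wild-type vehicle arrays, with replicate 2 lowest in both groups, and to 50.8 to 70.2 in human AHR TCDD and 34.6 to 89.7 in human AHR vehicle arrays. Ptprc, the pan-leukocyte marker, was at most 28.5 and Cd3e, of T cells, at most 8.82, near the median signal of all probe sets on the arrays (16.5 to 23.4). The macrophage list (7 of 7) summed to 1839 to 3715 in human AHR TCDD, 2048 to 3966 in human AHR vehicle, 1873 to 4171 in wild-type TCDD and 1912 to 3405 in wild-type vehicle arrays. Cd68 made up most of it. Gene by gene, 6 of 7 were higher in human AHR than in wild-type cells under vehicle, and 6 of 7 under TCDD. The median log2 differences were 0.89 and 0.63, beside 0.03 and -0.01 over all genes, and none of the 7 passed the test. The part of this in the genotype comparisons of the proteasome genes was not tested. The sum was 1839, 3201 and 3715 in human AHR TCDD arrays and 2048, 3166 and 3966 in human AHR vehicle arrays, the same order of replicates as for Psmb8 and Psmb9 but not for Psmb10. In wild-type TCDD arrays it was highest in replicate 3, where Psmb8, Psmb9 and Psmb10 were lowest, and in wild-type vehicle arrays it was lowest in replicate 1, as these 3 genes were. Adgre1, a macrophage surface marker, was 14.2, 38.2 and 24.4 in wild-type TCDD arrays. It alone of the 7 listed markers was highest in replicate 2 there, as Psmb8, Psmb9 and Psmb10 were. In wild-type vehicle arrays Adgre1 was 18.8, 17.7 and 46.9, lowest in replicate 2, whereas those 3 genes were lowest in replicate 1. Clec4f and Timd4, markers of resident macrophages, were at most 64.9 and 10.2. In cultures like these, fewer cells of a type and less RNA per cell cannot be told apart. The part of the marker levels, and of Xist and Eif2s3y, in the pattern was not tested.

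Over the 12 arrays, endothelial markers (5 of 5) summed to 103 to 224, stellate and fibroblast markers (6 of 6) to 36.7 to 115 and bile duct markers (4 of 4), mostly Krt19 at 307 to 1153, to 533 to 1371. Hepatocyte markers (6 of 7) summed to 38282 to 50825, mostly from Alb, Apoa1 and Ttr. The dimmer hepatocyte markers varied more: Hnf4a, a hepatocyte transcription factor, ran from 839 to 2125, highest in wild-type TCDD replicate 2, and Tat, tyrosine aminotransferase, from 216 to 1072, highest in wild-type TCDD replicate 3. The part of these markers in the results was not tested. The 3′ to 5′ signal ratio, a sign of RNA integrity, was 0.798 to 0.841 for Gapdh and 1.33 to 1.56 for Actb.

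Only some of the genes that load peptides onto MHC class I shared the order of the immunoproteasome genes. Of 14 listed genes of antigen presentation and its interferon control, 13 were measured, and none passed the test in any comparison; their log2 differences with TCDD were positive for 4 of 13 in human AHR cells (median -0.04) and for 5 of 13 in wild-type cells (median -0.12). Tap1, a subunit of the peptide transporter, had 324, 467 and 150.1 in wild-type TCDD arrays and 344, 419 and 326 in wild-type vehicle arrays. Erap1, which trims the peptides, had 322, 662 and 249 in wild-type TCDD arrays and 380.5, 581 and 459 in wild-type vehicle arrays. In both genes replicate 2 was highest in each wild-type group and TCDD replicate 3 lowest of the 6, as for Psmb8, Psmb9 and Psmb10 at the TCDD end. H2-K1, a class I heavy chain, differed: it had 8206, 9236 and 8773 in wild-type TCDD arrays and 8477, 7614 and 9205 in wild-type vehicle arrays. Irf1, an interferon-induced activator of these genes, had 323, 489.7 and 185 in wild-type TCDD arrays and 324, 325 and 362 in wild-type vehicle arrays. Of the same list, B2m, H2-D1, Calr and Pdia3 went the other way, highest in wild-type TCDD replicate 3 (11207, 8209, 4546 and 3965). Tap2, Tapbp, Irf1, Irf9, Nlrc5 and Ifngr1 were, like Tap1 and Erap1, highest in replicate 2 and lowest in replicate 3 of that group. The median deviation of the list was 0.27 in wild-type TCDD replicate 2 and -0.43 in wild-type TCDD replicate 3, but 0.05 in wild-type vehicle replicate 2.

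Genes that build or serve the proteasome lay on the same side as the constitutive subunits in the 3 arrays that stood out. Of 28 listed genes of assembly, shuttling and regulation 22 were measured; none passed the test in any comparison, and 13 of 22 were positive with TCDD in human AHR cells (median 0.01) and 16 of 22 in wild-type cells (median 0.08). Their median deviation was -0.23 in wild-type TCDD replicate 2, -0.21 in wild-type vehicle replicate 2 and 0.25 in wild-type TCDD replicate 3. Pomp, the chaperone of core maturation, had 4099.6, 4205 and 6252 in wild-type TCDD arrays and 4551, 3753 and 4862 in wild-type vehicle arrays. Pomp was highest in TCDD replicate 3 and, under vehicle, lowest in replicate 2, while under TCDD replicates 1 and 2 were close. Zfand5, which binds the proteasome under stress, had 4642, 2387 and 7294 in wild-type TCDD arrays and 4198, 2173 and 2811 in wild-type vehicle arrays. Nfe2l1, the factor known to drive the subunit genes through the antioxidant core, had 388, 345 and 386 in wild-type TCDD arrays and 427, 256 and 307 in wild-type vehicle arrays. It was lowest in replicate 2 of both groups, and TCDD replicate 3 did not stand out.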

How the data were processed

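The authors preprocessed 12 scanned arrays with GeneChip Operating Software and deposited PLIER-MM signal intensities from Affymetrix Expression Console 1.1, per the design text and the submitters' processing notes. The deposited intensities are linear, and their 2% trimmed mean was 500 for wild-type cells with TCDD (3 arrays) but 150 for the other 9, so every array was rescaled to 150. Rescaling by 1 factor per array does not undo any other difference in how those 3 arrays were processed. Such a difference cannot be told apart from the TCDD effect in wild-type cells. The same holds for the difference of the 2 TCDD effects and for genotype under TCDD. Of 45101 probe sets, 64 controls were dropped, and 34945 had 1 symbol in the platform annotation, giving 18193 genes by their brightest probe set. Names, positions and upstream sequences came from RefSeq GRCm38.p6. Values were tested as log2(signal + 16) with limma 3.58.1 (R 4.3.3; group means over all 12 arrays, 8 residual degrees of freedom, empirical Bayes with an intensity trend, Benjamini-Hochberg over all genes, threshold 0.05); the fit was tested on simulated data. The authors' own test, SAM, was not repeated. Fold changes of low signals are understated by the offset.

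Values are given for the catalytic subunits, the activators and the inhibitor, the 4 genes with the smallest p in each comparison and the 2 per other class with the smallest p. The members and lists were chosen with earlier results of these data known. Deviations of human AHR arrays with the same replicate number correlated at 0.24, 0.27 and 0.19, so the numbers were taken as pairs there on the values alone; in wild-type cells the correlations were 0.25, 0.51 and 0.05, and the replicate block is an alternative only. The other alternatives were offsets of 1 and 50, 2 scalings, a filter on dim genes, no trend, fewer arrays, averaged probe sets and each array left out. The fits without both wild-type replicate 2 arrays were among them.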

Additional observations from a re-analysis of the deposited data

How the results depend on the processing

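No proteasome gene passed the threshold under any of the 22 alternatives in any of the 5 comparisons, and the lowest adjusted p of a named gene was 0.454. Counts of all genes passing were 4 (TCDD in human AHR cells), 1 (TCDD in wild-type cells), 0 (difference), 1 (genotype, vehicle) and 0 (genotype, TCDD). They moved as follows: with an offset of 50 to 2 for genotype under vehicle; with a shared median to 0 for TCDD in wild-type cells; without the trend to 2 for TCDD in human AHR cells, 0 for TCDD in wild-type cells and 0 for genotype under vehicle; with only the arrays compared to 6 for TCDD in human AHR cells and 0 for TCDD in wild-type cells; with averaged probe sets to 1 for TCDD in human AHR cells, 2 for genotype under vehicle and 1 for genotype under TCDD. With the replicate block, genotype under vehicle had 0 genes, and the block changed no call of a proteasome gene. In the genotype comparisons this block joined different mice by replicate number alone. Their deviations over all genes correlated at -0.15, -0.18 and 0.04 under vehicle and 0.01, -0.32 and -0.16 under TCDD. The block is therefore no check on those comparisons. Without both wild-type replicate 2 arrays, TCDD in wild-type cells had 0, the difference 1 and genotype under TCDD 2. Leaving out each array gave 0 to 6, 0 to 1, 0 to 1, 0 to 2 and 0 to 1 genes in the order of comparisons above. The cause of these moves was not tested. The median of the 43 genes for the difference of TCDD effects moved to 0.20 with a shared median, against 0.06, since that scaling adds 0.14 to every gene in this comparison. Of 2080 values of named genes under alternatives, 113 changed sign. No named gene was called in any fit, so none of these could have been a called value. Psma8 and Psmb11 have no value where the dimmest 40% of genes were left out. With 3 arrays a group, precision is limited by their number.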
